A study of Danio rerio with 4 samples.

Results

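The glucocorticoid receptor gene nr3c1, 4 genes that respond to the receptor in other tissues (fkbp5, klf9, tsc22d3 and klf4) and 5 immediate early genes (fosab, junba, egr1, ier2a and atf3) were followed in zebrafish testes. These 10 genes were listed by name. Probes were assigned to them through the transcript each probe was designed for, which gave 23 of the 43603 probes on the array. All 10 were among the 24330 genes tested, of which 12496 had a gene symbol. Testes came from 4-month-old Danio rerio exposed for 6 weeks to microcystin-LR (MCLR, a toxin of cyanobacteria) at 20 µg/L, or not exposed (0 µg/L, the control). Each group had 2 one-colour arrays of total RNA. The design notes speak of 2 independent experiments, each with both groups, but do not tie arrays to them, so the arrays may be paired in a way the fit does not use, and the labels give neither a strain nor the number of fish behind an array. The p-values therefore reflect the spread among these 4 samples, which may be technical, and so few arrays limit the precision.

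Glucocorticoids such as cortisol, the main stress steroid of fish, bind a receptor that waits in the cytoplasm on a chaperone complex with Hsp90, then move it to the nucleus, where it switches target genes. Several of those targets feed back on the hormone or quiet inflammation. Immediate early genes are transcribed within minutes of a stimulus without new protein synthesis, mostly through kinases that act on factors already bound to their promoters. Phosphatases of the PP1 and PP2A families, which MCLR blocks, remove phosphate from such kinases and factors. In the mammalian testis the receptor is found in Leydig cells, among others, and high glucocorticoid levels lower androgen production there.

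All levels below are log2 values of the background-subtracted signal relative to the 75th percentile of the same array, and pairs of values are given in the order replicate 1, replicate 2. They compare arrays for 1 probe, not genes with each other. The share of spots well above background ranged from 81.9% to 88.2% over the arrays, and 0 spots were saturated. All 4 arrays lay on slide 1, with MCLR at positions 1 and 2 and control at 3 and 4; group and position on the slide cannot be told apart. All 15 tested testis markers stood well above background on all 4 arrays. Among them were the germ cell gene ddx4 (1.39 and 1.09 for control, 1.40 and 1.41 for MCLR), the meiosis gene sycp3 (3.76, 3.11, 3.15 and 3.52), the Sertoli cell gene amh (1.39, 1.52, 1.66 and 0.96) and the Leydig cell gene insl3 (4.58, 5.03, 4.12 and 4.67). This count cannot check the tissue label, since a gene was tested only if well above background on both arrays of a group. Of the 24330 genes tested, 22371 stood so on all 4 arrays, as did all 15 tested pancreas and all 10 tested liver markers.

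Markers of other cells differed between arrays of the same group. All 15 tested pancreas markers, among them prss59.1 and ela2l, were highest on control replicate 2, where their summed level, in units of the 75th percentile, was 333.0 against 15.2 on the other control array and 14.5 to 18.6 on the MCLR arrays. Of 12 neuron and glia markers, among them gad2 and atp1a3b, 10 were highest on control replicate 1. The gene gad2 was not among the 10, being lowest on that array and highest on control replicate 2. The median log2 level of the list was 2.63 on control replicate 1, -1.01 on control replicate 2 and -0.098 and -1.08 with MCLR. Their summed linear level was 137.8, 116.5, 94.5 and 91.3, with gad2 (6.13, 6.71, 6.38 and 6.39 in log2) as its largest term, and gfap was well above background on only 1 control array. The 10 leukocyte markers, among them coro1a and spi1b, summed to 11.6 to 13.2 in the controls and 14.4 to 21.9 in MCLR. The highest sum was on MCLR replicate 2, where 5 of the 10 were highest, but the list's median log2 level was lowest on that array (-0.97, against -0.80, -0.88 and -0.48 on the others). Liver markers (10, with fabp10a and apoa1b) summed to 19.0 to 45.3, red blood cell markers (7, with hbba1 and hbaa2) to 8.72 to 21.2 and smooth muscle and fibroblast markers (10, with acta2 and tagln) to 38.7 to 63.2 over the 4 arrays, with control and MCLR overlapping in each. By the sign of the log2 fold change, 9 of 10 leukocyte and 9 of 10 smooth muscle and fibroblast markers were higher with MCLR. Lower were 6 of 7 red blood cell, 6 of 10 liver, 14 of 15 pancreas and 11 of 12 neuron and glia markers. Over all genes tested 61.4% were higher. The liver, pancreas, and neuron and glia counts turned on single control arrays. Dropping control replicate 2 left 10 of 15 pancreas and all 10 liver markers higher with MCLR. Then 10 of 12 neuron and glia markers were lower. Dropping control replicate 1 instead left 9 of 12 neuron and glia markers higher. All 15 pancreas and 9 of 10 liver markers were lower in that case. The directions of these lists are therefore not read as a group difference. In whole testis RNA, fewer cells of a type and less RNA per cell cannot be told apart.

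The comparison of MCLR with control asks whether the receptor, its targets and the early response genes differ after the 6 weeks of exposure. None of the 10 genes passed the adjusted threshold of 0.05 with limma, a linear model fitted across all genes, which called 0% of the 24330 genes. Leaving out control replicate 2 gave 238 higher and 84 lower calls over all genes, leaving out control replicate 1 gave 173 and 41, and scaling by the median 208 and 6, with 0 of the 10 genes called in each. At an unadjusted p under 0.05, klf4 was higher and fkbp5 was lower. Over all genes tested 9.2% had such a p, 8.67% higher and 0.53% lower, so 1 of 10 higher lies near the background. The receptor gene and its 4 targets had a median log2 fold change of -0.34, with 4 of 5 below 0, and the 5 immediate early genes one of 0.41, with 4 of 5 above 0. The median over all genes was 0.082, and 38.6% of them were below 0. The median of the receptor and its targets was -0.083 without control replicate 1 and -0.056 without MCLR replicate 2. That of the immediate early genes was 0.27 to 0.67 when 1 array at a time was left out. With quantile normalization or scaling by the median, 3 of these 5 genes were above 0, as egr1 then fell below it. The groups did not overlap for 4 of the 10 genes, against 34.4% of all genes tested. Of the 4, klf4, junba and ier2a were higher with MCLR (25.3% of all genes) and fkbp5 was lower (9.08%).

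**Figure D1:**
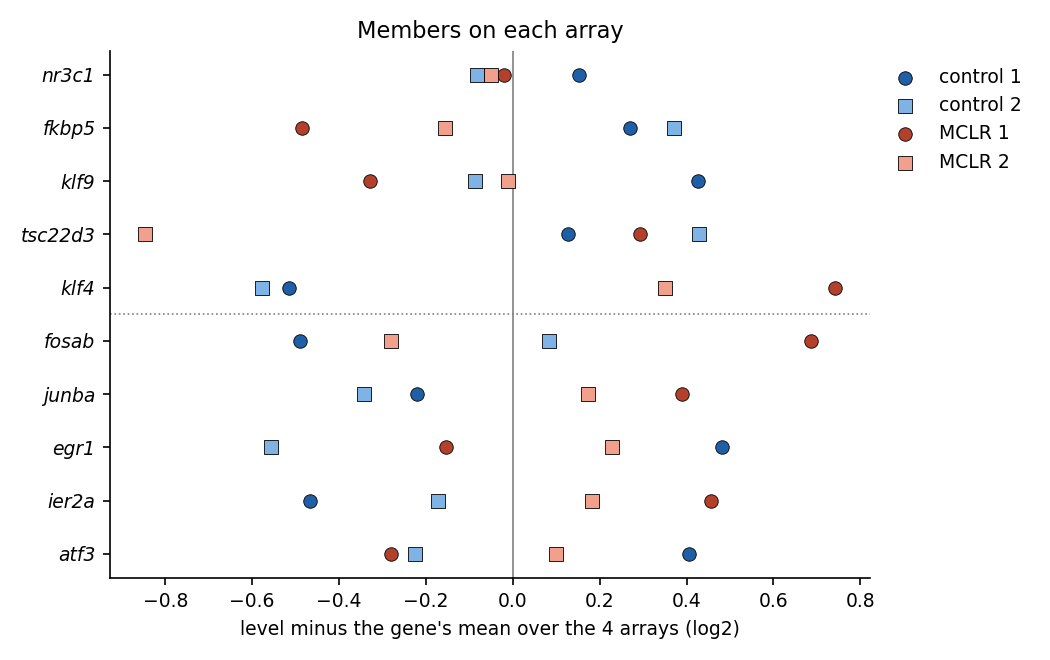
Level of each of the 10 genes on the 4 arrays, as the difference from the gene's own mean (log2, horizontal axis), with control arrays in blue, MCLR arrays in red, circles for replicate 1 and squares for replicate 2. Control and MCLR points separate for fkbp5, klf4, junba and ier2a and are mixed for the other 6 genes.

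The receptor gene nr3c1 was nearly level across the arrays. Its brightest probe read 0.13 and -0.11 on control arrays, against -0.05 and -0.08 on MCLR arrays, so both MCLR arrays lay between the controls. MCLR minus control was -0.07 ± 0.24 on the log2 scale (estimate ± SE of the fit, here and below; n = 2 per group), and the 95% interval ran from -0.67 to 0.53 (adjusted p = 0.999, limma). The other 2 probes gave -0.065 and 0.022, and all 3 were highest on control replicate 1 and lowest on control replicate 2. The interval of nr3c1 stayed within a 2-fold difference in either direction, as did that of atf3 among the 10 genes; the other 8 intervals reached or crossed 2-fold.

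The target gene fkbp5 encodes an immunophilin that binds Hsp90 in the receptor complex and lowers the receptor's affinity for hormone, so that in mammals its induction closes a feedback loop. Its brightest probe read -0.42 and -0.32 on control arrays, against -1.18 and -0.85 on MCLR arrays. Both MCLR arrays lay below both controls. This was a log2 fold change of -0.64 ± 0.25, or 1.56-fold lower, with an unadjusted p of 0.0477 and an adjusted p of 0.533 (limma). A second, dimmer probe read -3.13 and -2.88 on control arrays, against -3.68 and -4.59 on MCLR arrays, which differ by -1.13 ± 0.37 (adjusted p = 0.396 over all probes). The unadjusted p was above 0.05 with the replicate number as a block (0.0537) and without any 1 of the 4 arrays (0.0620 to 0.205, limma). The groups were separate on both probes, but the probes ordered the 2 MCLR arrays oppositely. Among 2565 genes within 0.5 log2 units of its mean level, the median log2 fold change was 0.032 and 0.702% were lower at an unadjusted p under 0.05. Without control replicate 2, the array with the pancreas markers, the log2 fold change of fkbp5 was -0.59, and without MCLR replicate 1 it was -0.48.

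The gene tsc22d3 encodes the glucocorticoid-induced leucine zipper protein, which restrains inflammatory transcription factors in mammals. Its brightest probe read 1.71 and 2.01 on control arrays, against 1.88 and 0.74 on MCLR arrays. One array, MCLR replicate 2, stood apart at the low end, while MCLR replicate 1 lay between the controls. All 3 probes were lowest on MCLR replicate 2, and the gap between the MCLR arrays was 1.14 to 1.24 over the probes. The log2 fold change of the brightest was -0.55 ± 0.42 (adjusted p = 0.914, limma), and a second bright probe gave -0.61. The third probe, which was dim with linear signals of 22.3 to 39.5, gave 0.28, so the sign differed only there. Without MCLR replicate 2 the value was 0.015. Without MCLR replicate 1 it was -1.12, which rests on MCLR replicate 2 alone for the MCLR group. Leukocyte markers had their highest sum (21.9) but their lowest median on that same MCLR replicate 2; their part in the low tsc22d3 signal there was not tested.

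For klf9, a Krüppel-like repressor induced by glucocorticoid and thyroid hormone, the brightest probe read -0.56 and -1.07 on control arrays, against -1.31 and -0.99 on MCLR arrays. The groups overlapped, with a log2 fold change of -0.34 ± 0.29 (adjusted p = 0.953, limma), and the second probe gave -0.079. Without control replicate 1, where klf9 was highest, the brightest probe gave -0.083.

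The Krüppel-like factor gene klf4, a regulator of stem cell and epithelial programmes that in mammals is also made by Sertoli cells, was dim. Its brightest qualifying probe had linear signals of 15.5 and 11.7 on control arrays, against 28.3 and 28.5 on MCLR arrays, where the lowest signal marked as well above background was 6.30 to 6.83 on the control arrays and 8.19 to 8.43 on the MCLR arrays. As log2 levels these were -4.67 and -4.73 on control arrays, against -3.41 and -3.80 on MCLR arrays. The groups did not overlap, and the log2 fold change was 1.09 ± 0.26, or 2.13-fold higher, with an unadjusted p of 0.00672 and an adjusted p of 0.224 (limma). A second probe, with linear signals of 18.8 and 13.1 on control arrays, against 23.0 and 19.1 on MCLR arrays, gave 0.43 ± 0.32. It was the brighter of the 2 on the controls, so the first stood for the gene through its higher MCLR values. Averaging the 2 probes gave 0.76 (unadjusted p = 0.0368, limma). The third probe stood above background on only 1 array, MCLR replicate 1, and did not pass the filter on dim probes.

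Genes as dim as klf4 mostly read higher on the MCLR arrays. Among 3279 genes within 0.5 log2 units of the mean level of klf4, 77.8% had a positive log2 fold change, the median was 0.35, and 17.3% were higher at an unadjusted p under 0.05. The median negative control spot had a linear signal of 1.498 and 1.402 on control arrays, against 1.88 and 1.78 on MCLR arrays. Its part in the klf4 difference was not tested. With quantile normalization in place of the 75th percentile the log2 fold change of klf4 was 0.75, and with normexp background correction (offset 50, which shrinks differences between dim spots) followed by quantile normalization it was 0.20 (unadjusted p = 0.121, limma). The 5 named genes whose profile over the 4 arrays lay closest to that of klf4, out of 11100 candidates, were phykpl, il6st, foxo1b, chst3b and kcnc1b. Euclidean distances between centred log2 levels were 0.091 to 0.123. Their log2 fold changes of 1.00 to 1.16 follow from this choice by profile and are not a separate result. All 5 were dim too, at log2 levels of -5.16 to -4.16 on the control arrays.

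**Figure D2:**
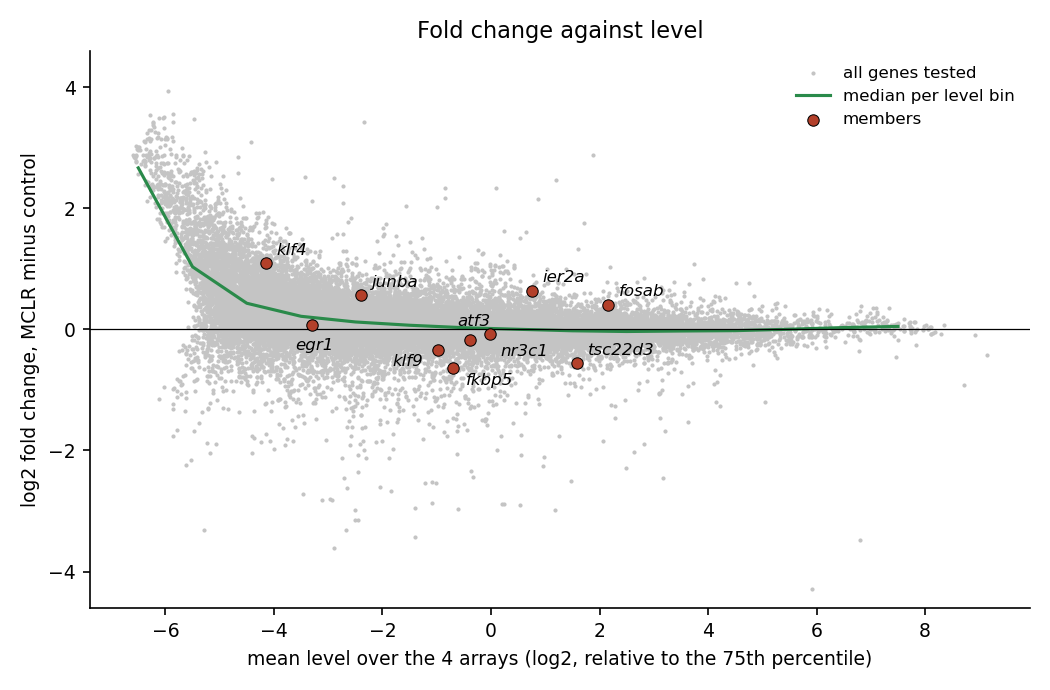
Log2 fold change of MCLR against control (vertical axis) by mean log2 level over the 4 arrays (horizontal axis, relative to the 75th percentile) for the 24330 genes tested in grey, with the median in bins of 1 log2 unit in green and the 10 genes in red. The green median climbs at low levels, where klf4 sits at a log2 fold change of 1.09.

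Among the immediate early genes, fosab encodes the Fos subunit of the AP-1 factor. Its brightest probe read 1.67 and 2.24 on control arrays, against 2.85 and 1.88 on MCLR arrays. MCLR replicate 1 was the highest array, and MCLR replicate 2 lay between the controls. MCLR minus control was 0.41 ± 0.41 (adjusted p = 0.983, limma), and the gap between the 2 MCLR arrays, 0.97, was larger than that. The 5 probes of fosab gave 0.21 to 0.41, and all 5 put the arrays in the same order, from MCLR replicate 1 through control replicate 2 and MCLR replicate 2 down to control replicate 1. Over the 5 probes the gap between the MCLR arrays was 0.80 to 1.07, and control replicate 1 lay 0.53 to 0.98 below control replicate 2. Without MCLR replicate 1 the log2 fold change was -0.076, and without MCLR replicate 2 it was 0.89.

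**Figure D3:**
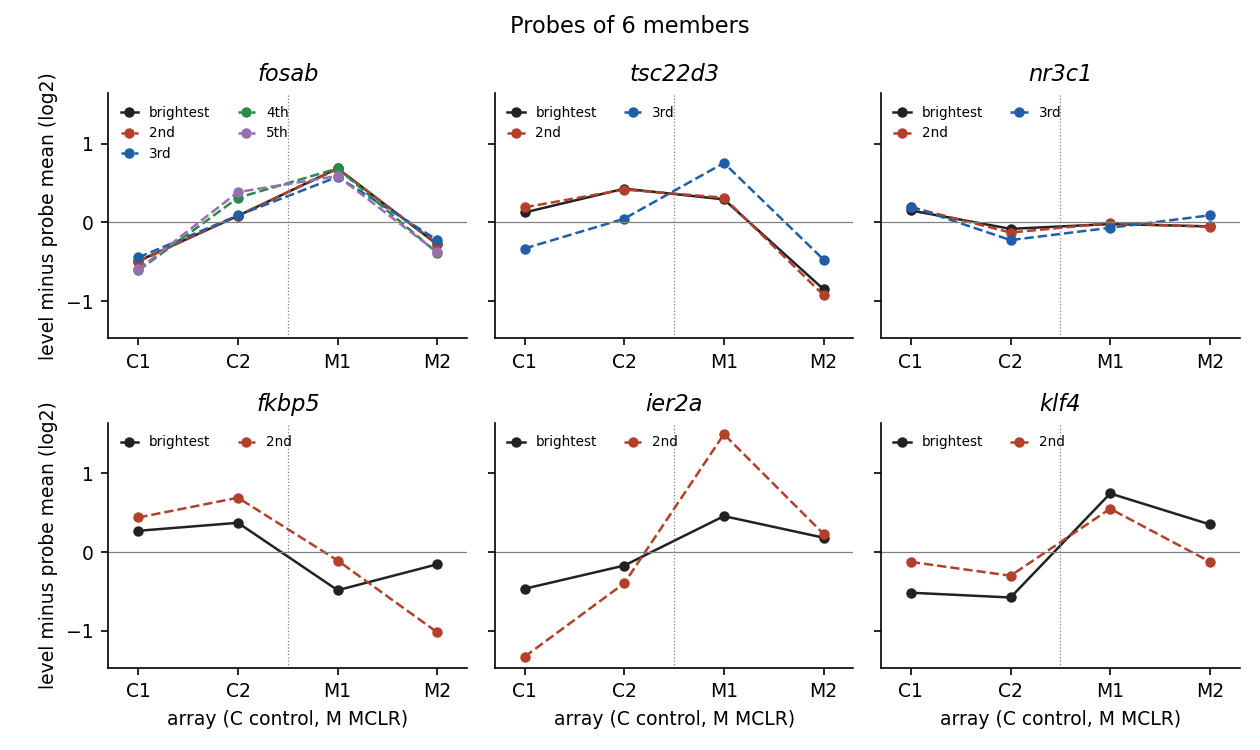
Level of every qualifying probe of 6 genes on the control (C1, C2) and MCLR (M1, M2) arrays, as the difference from the probe's own mean (log2, vertical axis), with the solid line for the brightest probe. The 5 fosab probes share 1 order of arrays, the 3 tsc22d3 probes are all lowest on M2, and nr3c1 is nearly flat.

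The gene junba encodes a Jun family partner of Fos in AP-1. Its single probe read -2.61 and -2.73 on control arrays, against -2.0 and -2.21 on MCLR arrays. Both MCLR arrays lay above both controls, with a log2 fold change of 0.56 ± 0.24 (unadjusted p = 0.0627, adjusted p = 0.599, limma). It was 0.47 with quantile normalization and 0.31 with normexp and quantile normalization together. Among 2941 genes within 0.5 log2 units of the mean level of junba, 64.2% had a positive log2 fold change, and the median was 0.11.

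For ier2a, an early response gene that growth factors induce, the brightest probe read 0.29 and 0.59 on control arrays, against 1.22 and 0.94 on MCLR arrays. The groups did not overlap, and the difference was 0.64 ± 0.26, or 1.56-fold higher (unadjusted p = 0.0531, adjusted p = 0.556, limma), and 0.67 with quantile normalization. With that setting its unadjusted p was 0.0409 (adjusted p = 0.834), and with normexp as well 0.0100 (adjusted p = 0.997, limma). The unadjusted p was 0.0644 with no filter on dim probes, 0.0754 with the replicate number as a block and 0.122 with median scaling (limma). This probe was bright, and the 2428 genes within 0.5 log2 units of its mean level had a median log2 fold change of -0.0091. A second probe was not well above background on either control array (-6.46 and -5.53, against -3.64 and -4.91 in MCLR). It passed the filter only through the MCLR arrays, where it was high, so its direction is no separate support. By group means its signal was at least 2.67-fold higher in MCLR (adjusted p = 0.340 over all probes, limma). That bound does not hold for every pair of arrays, as control replicate 2 and MCLR replicate 2 lay closer. Both the bound and the p come after a filter that favoured high MCLR values and are not read as a result. Leaving out 1 array at a time, the brightest probe gave 0.49 to 0.78.

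The remaining pair differed more within the control group than between the groups. For egr1, a zinc finger factor, the single probe read -2.81 and -3.85 on control arrays, against -3.45 and -3.07 on MCLR arrays. Both MCLR arrays lay between the controls. MCLR minus control was 0.07 ± 0.41 (adjusted p = 0.999, limma), and it was -0.13 with quantile normalization. The gap between the controls, 1.04, was larger than that of 91.3% of all genes tested. Among 3195 genes within 0.5 log2 units of the mean level of egr1, 72.1% had a positive log2 fold change, and the median was 0.20.

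For atf3, a stress-induced factor of the ATF and CREB family, the single probe read 0.01 and -0.62 on control arrays, against -0.67 and -0.29 on MCLR arrays. The groups overlapped, with a log2 fold change of -0.18 ± 0.32 (adjusted p = 0.999, limma). Its arrays ran in the reverse of the order shared by the fosab probes, as did those of the brightest klf9 probe. The second klf9 probe ran in another order, and the share of all genes with the reverse order is not given. The genes egr1, atf3, klf9 and nr3c1, 4 of the 10, were all highest on control replicate 1, as were 4346 of the 24330 genes tested. On that array 10 of 12 neuron and glia markers were highest too. The part of those cells in these values was not tested.

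**Figure D4:**
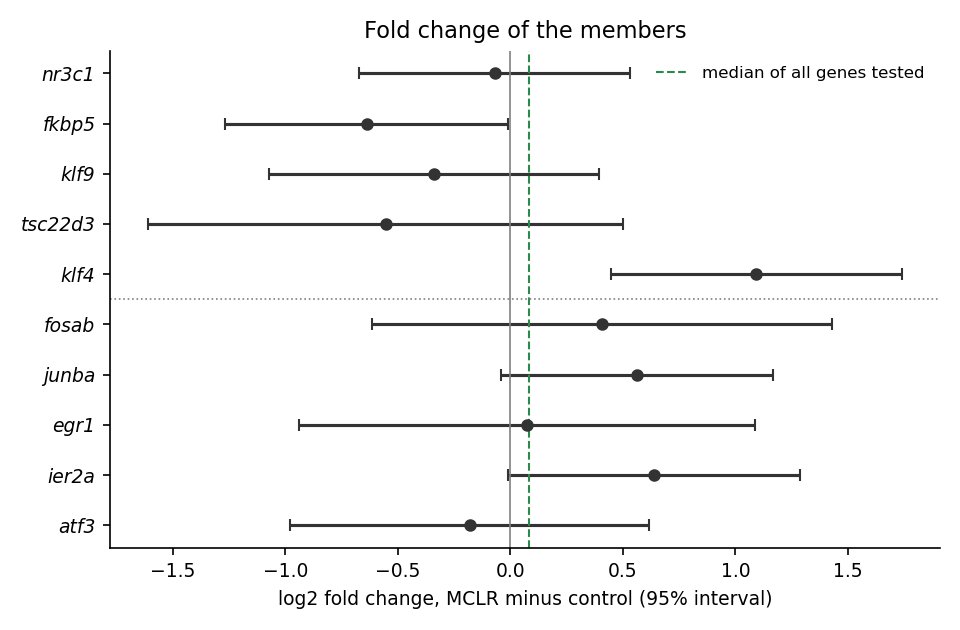
Log2 fold change of MCLR against control for the 10 genes (points) with the 95% interval from limma (bars), the zero line in grey and the median of all genes tested, 0.082, dashed in green. The intervals of fkbp5 and klf4 lie to one side of zero before adjustment for the number of genes.

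Over the 10 genes, the gap between the arrays of one group was larger than the difference between the groups for 6, against 76.9% of all genes tested. Of the 22 probes that passed the filter, 15 overlapped between the groups and 7 did not, against 34.5% of all probes tested that did not. Among the 7 was the second ier2a probe, which passed only through the MCLR arrays. The probes of nr3c1 and tsc22d3 included both signs, while those of fkbp5, klf9, klf4, fosab and ier2a each kept 1 sign. The genes junba, egr1 and atf3 had a single probe.

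Other genes known to respond to glucocorticoids were split evenly by sign. Of 40 listed, 34 were tested, 17 with a positive and 17 with a negative log2 fold change, and their median was -0.0029. None passed the adjusted threshold, and 0 had an unadjusted p under 0.05 (limma). The 4 with the smallest p were the FoxO factor gene foxo3b, the clock gene per1b, the insulin-like growth factor binding protein gene igfbp1a and the glutamine synthetase gene glula. The level of per1b was 1.22 and 1.16 on control arrays, against 0.70 and 0.67 on MCLR arrays, which differ by -0.51 ± 0.23 (adjusted p = 0.644, limma). Its groups did not overlap. In this list that held for 8 genes higher and 5 lower with MCLR, against 25.3% and 9.08% of all genes tested. That of igfbp1a was 0.55 and 1.16 on control arrays, against 1.29 and 1.96 on MCLR arrays (0.76 ± 0.36). The values of foxo3b and glula were -0.67 ± 0.28 and -0.60 ± 0.32, and probes of foxo3b ran from -0.90 to 0.53.

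Within that list the inflammation-responsive cebpb, socs3b and nfkbiaa, picked out after their values were seen, were each highest on MCLR replicate 2. The list also holds cebpd, socs3a and nfkbiab, whose values are not given here. In all, 10 of its 34 tested genes were highest on that array, against 6244 of the 24330 genes tested, which is a similar share. The genes picked are therefore no result about the list. There 5 of 10 leukocyte markers were highest too, but the median log2 level of those markers was lowest. The C/EBP factor gene cebpb read 1.89 and 1.88 on control arrays, against 1.98 and 2.97 on MCLR arrays. The cytokine signalling inhibitor gene socs3b read -0.14 and -0.07 against 0.10 and 0.72, and the NF-κB inhibitor gene nfkbiaa 0.30 and 0.47 against 0.51 and 1.19. The part of leukocytes in these values was not tested.

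Of 58 other immediate early genes, 44 were tested, 27 with a positive and 17 with a negative log2 fold change (median 0.10). This is 61.4% positive, as among all genes tested. None passed the adjusted threshold, and 2 of the 44 were higher at an unadjusted p under 0.05 (limma), against 8.67% of all genes tested. Both were dim and passed the filter only through the MCLR arrays, where they were high. With only probes above background on all 4 arrays, 40 genes were tested and 0 were higher at such a p (limma). The Fos family gene fosl1a read -4.82 and -5.46 on control arrays, against -3.30 and -4.20 on MCLR arrays and stood above background on 1 of the control arrays; its log2 fold change of 1.39 ± 0.40 (adjusted p = 0.325) was 0.98 with quantile normalization and 0.16 with normexp and quantile normalization. The MAP kinase phosphatase gene dusp4 was not well above background in either control and was at least 2.55-fold higher in MCLR (adjusted p = 0.326). The serum response factor gene srfa (0.50 ± 0.23) and klf11b (0.50 ± 0.24) followed. The largest gap between the controls in this list, chosen after the values were seen, was that of egr4. It read -1.46 on control replicate 1, against -3.57 on control replicate 2 and -2.60 and -3.74 in MCLR. Of the 44 genes, 6 were highest on control replicate 1 and 20 on MCLR replicate 1. Over the 24330 genes tested these counts were 4346 and 7969.

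**Figure D5:**
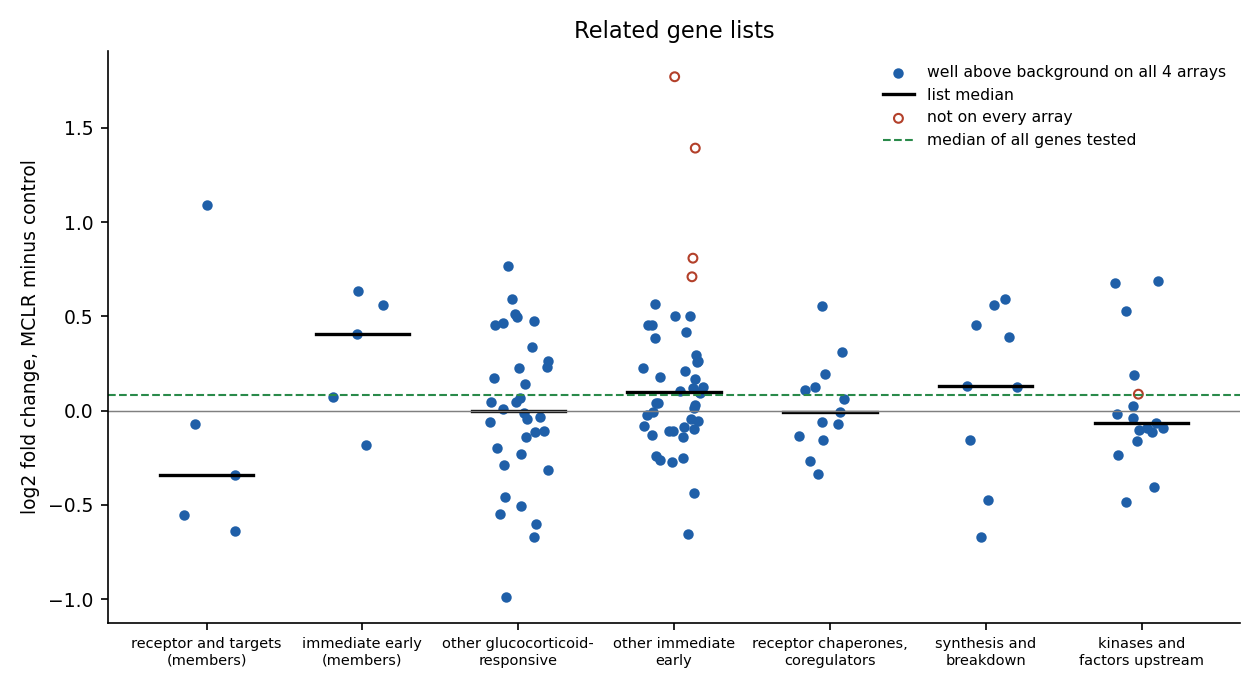
Log2 fold change of MCLR against control (vertical axis) for the genes of 7 lists (horizontal axis, 1 point per gene), with open red points for genes not well above background on every array, black bars for list medians and a dashed green line for the median of all genes tested. The 34 other glucocorticoid-responsive genes centre on -0.0029 and the 44 other immediate early genes on 0.10.

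The chaperones and coregulators of the receptor centred near zero. Of 21 listed genes, 13 were tested, with log2 fold changes from -0.34 to 0.56 and a median of -0.0069, and 0 had an unadjusted p under 0.05 (limma). The 4 with the smallest p were the coactivator gene ncoa2 (0.56 ± 0.36), the Hsp90 gene hsp90aa1.2 (-0.34 ± 0.23), the gene for the related mineralocorticoid receptor, nr3c2 (0.31 ± 0.23), and the p23 cochaperone gene ptges3a (-0.27 ± 0.25). The value of ncoa2 was 0.20 with quantile normalization and -0.0023 with normexp as well, and probes of hsp90aa1.2 and ptges3a reached 0.083 and 0.094.

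Among genes that make and break down glucocorticoids, 9 of 12 were tested, 6 positive and 3 negative (median 0.13), with 0 at an unadjusted p under 0.05. The enzyme hsd11b2 inactivates cortisol and, in fish, also takes part in making 11-ketotestosterone. Its level was 1.91 and 2.57 on control arrays, against 1.496 and 1.65 on MCLR arrays (-0.67 ± 0.31, adjusted p = 0.646, limma). Both MCLR arrays lay below both controls, as for 9.08% of all genes tested. The 11-beta-hydroxylase gene cyp11c1 read 2.48 and 3.59 on control arrays, against 3.58 and 3.62 on MCLR arrays (0.56 ± 0.41), and cyp11a1.1, of the first step of steroid synthesis, 0.22 and 1.51 against 1.41 and 1.49 (0.59 ± 0.45). For both, control replicate 1 was the array apart; without it the values were 0.0063 and -0.054. The value of cyp17a2 was 0.39 ± 0.28.

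Of 24 kinases and factors upstream of the early genes, 17 were tested, 6 positive and 11 negative (median -0.068), with 0 at an unadjusted p under 0.05 (limma). The dim JNK genes mapk8a and mapk8b gave 0.69 ± 0.43 and 0.68 ± 0.37, and the dim RSK2 gene rps6ka3b 0.53 ± 0.30. Quantile normalization gave 0.31, 0.38 and 0.25 for these genes, and normexp with quantile normalization 0.088, 0.080 and 0.11.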

How the data were processed

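Per the labels, total RNA was amplified and labelled with Cy3. Per the file headers, the deposited processed signal is a linear intensity from Agilent Feature Extraction 11.0.1.1, after subtraction of background and spatial detrending of each array, and the deposited 0 or 1 marks give spots well above background. The deposited log2 value table, whose normalization is not given in the sources used here, served as an alternative. Levels were log2 intensity minus the log2 75th percentile over non-control spots. Replicate spots were averaged; outlier marks removed 60 probes. Transcripts named 59.6% of probes through the GRCz12tu gene table. Probes without a gene symbol were counted as genes under the array's own name for their target, so some may be the same gene. No coordinates are given, since the array follows another build. Probes well above background on both arrays of a group were kept (37427), and the brightest probe stood for its gene. The test was limma 3.58.1 in R 4.3.3 (MCLR minus control, group only, eBayes, two-sided, Benjamini-Hochberg over 24330 genes). In 20 simulated runs of this comparison on 24330 genes, 50 genes were shifted in each. Of genes shifted by 1 log2 unit, 0.2% passed the adjusted threshold and 75.2% had an unadjusted p under 0.05. Of those shifted by 3, 74.0% passed the adjusted threshold. The adjusted shares depend on how many genes change, so they need not hold where more than 50 do. Bounds ("at least") compare group means. Each array of the dim group was set at its own level or the lowest level marked well above background, whichever was higher. The genes and lists were chosen with earlier results of these data known. All 10 genes were described in any case, and from each further list the 4 with the smallest p; of the marker lists, 4 testis genes and the 2 brightest genes of each other cell type were named. One gene that this rule selects is not reported here. Alternatives were other scalings, normexp background correction followed by quantile normalization, filters, probe rules, priors, a replicate block and leaving out each array. Python 3.11.15 with matplotlib 3.10.9 drew the plots.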

Additional observations from a re-analysis of the deposited data

How the results depend on the processing

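None of the 10 genes passed the adjusted threshold under any of the 13 alternatives run for them with limma (the lowest adjusted p was 0.198, for klf4), and fkbp5, klf9, klf4, junba and ier2a kept their sign in all 13. The values ran from -0.88 to -0.47 for fkbp5 (adjusted p from 0.269 to 1.00), from 0.20 to 1.29 for klf4 and from 0.49 to 1.18 for ier2a. The 1.18 for ier2a came from averaging its probes, which takes in the dim probe that passed the filter only through MCLR. The sign of egr1 turned with quantile normalization (-0.13), median scaling (-0.021), normexp followed by quantile normalization (-0.083) and the deposited value table (-0.13). Leaving out 1 array gave -0.45 to 0.59 for egr1, -0.50 to 0.13 for atf3, -0.076 to 0.89 for fosab, -0.19 to 0.046 for nr3c1 and -1.12 to 0.015 for tsc22d3. It gave medians of -0.30 to 0.13 for the 10 genes (-0.30 without control replicate 2) and -0.40 to -0.056 for the receptor and its targets, with 3 to 6 of the 10 below 0 and 1 to 2 at an unadjusted p under 0.05. That last count was 1 with median scaling, with no filter on dim probes and with the replicate number as a block, where fkbp5 missed it, as it did without any 1 array. It was 3 in 6 settings, in each of which ier2a passed: quantile normalization, normexp followed by it (where junba also passed and klf4 missed), the deposited table, averaging the probes of a gene, keeping only probes above background on every array, and the trended prior. The labels do not say that equal numbers share fish or a day, and same-numbered arrays deviated together with a correlation of 0.19 across genes; the block called 0 genes. Over all genes, median scaling called 208 higher and 6 lower, the trended and robust prior 2 lower, and leaving out 1 array 0 to 238 higher and 0 to 84 lower (238 and 84 without control replicate 2, 173 and 41 without control replicate 1). A lone array is then assumed to vary like the other group. The cause was not tested. Median scaling moved the median of all genes from 0.082 to -0.014.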
